A study of Mus musculus with 4 samples.

Results

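The genes described here encode the machinery that docks synaptic vesicles at the nerve terminal and fuses them with its membrane: synaptotagmins, syntaxins, syntaxin-binding proteins, vesicle-associated membrane proteins, SNAP proteins, synapsins, Rab3 GTPases, complexins and SV2 glycoproteins. They were chosen by gene name alone from a 2-colour Agilent mouse genome array. The names matched 80 genes with 160 probes, and 72 of these genes, with 138 probes, were well above background in the mutant or the control channel of all 4 arrays. They stand among 18025 genes with 25915 probes that passed the same filter, of 28632 names and 41174 probes in all. The Rab3 name pattern also takes in Rab30 to Rab39, GTPases of other membranes, which are kept apart below.

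RNA came from whole cerebellum of mice at postnatal day 30, on a mixed strain background. The mutants carried mGfap-Cre and 2 floxed Dicer alleles (mGfap-Cre; Dicer flox/flox). The controls were littermates with the same Cre and 1 floxed allele (mGfap-Cre; Dicer +/flox), so Cre and a floxed allele were common to both groups. Cre was driven by a mouse Gfap promoter (line 73.12), and Gfap is a gene of astroglia, so a deletion in those cells is diluted in whole tissue. There were 4 mutants and 4 controls, in 4 biologically independent littermate pairs, and each pair was hybridised to 1 array from 500 ng of total RNA per channel. The mutant was labelled with Cy5 in pairs 1 and 3 and with Cy3 in pairs 2 and 4. Values are log2 ratios of mutant over control, given as the estimate ± SD over the 4 pairs, and adjusted p-values come from limma over 18025 genes.

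Neurotransmitter release rests on SNARE proteins: a vesicle SNARE (VAMP1 or VAMP2) zips together with a syntaxin and SNAP25 of the plasma membrane, and this pulls the membranes into contact. Syntaxin-binding proteins guide assembly, complexins clamp and promote the partly zipped complex, and synaptotagmins trigger fusion when calcium enters. Synapsins tether the reserve pool of vesicles, Rab3 marks vesicles for docking, and SV2 is an integral glycoprotein of the vesicle membrane. In the cerebellum these proteins fill the terminals of granule, Purkinje and interneurons, while several organelle SNAREs and Rab30 to Rab39 also act in glia and other cells.

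Probe sequences are shown for the genes whose ratios were farthest from 0 and for Vamp2, whose probes differed. They are 60 bases long, and coordinates refer to build mm9, per the file headers. A probe whose coordinates span more than its own length crosses a splice junction and is printed whole, and of the others the first 30 bases are printed. All are in lower case except that the capitals in Vamp2 mark the 50 bases that its 2 junction probes share. The Rab34 probes lie at chr11:78005629-78005688 (A_52_P528690) and chr11:78003691-78003843 (A_51_P183685, across a junction), both on the plus strand. The Vamp3 probes lie at chr4:150422377-150422436 (A_52_P31490) and chr4:150423080-150423139 (A_51_P252212) on the minus strand, and the Vamp5 probe crosses a junction at chr6:72319420-72320202 (A_52_P281924) on the minus strand. The Vamp2 probes lie on the plus strand at chr11:68905527-68905586 (A_52_P301495), chr11:68903492-68904173 (A_52_P240905) and chr11:68903482-68904163 (A_51_P446927). No annotation of this build was used here, so the exons and untranslated parts under these probes are not given.
Rab34, A_52_P528690, first 30 bases: taaaaatgcttaatgattttagccttacac
Rab34, A_51_P183685: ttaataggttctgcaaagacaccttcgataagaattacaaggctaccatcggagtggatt
Vamp3, A_52_P31490, first 30 bases: acaaataaattgccccaatagatacattca
Vamp3, A_51_P252212, first 30 bases: atgaagaaccgatgaaactgaagcccgata
Vamp5, A_52_P281924: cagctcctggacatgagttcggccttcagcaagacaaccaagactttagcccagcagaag
Vamp2, A_52_P301495, first 30 bases: agtgtgagagagaaagcaagctatttcctt
Vamp2, A_52_P240905: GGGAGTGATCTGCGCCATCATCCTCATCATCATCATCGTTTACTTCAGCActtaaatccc
Vamp2, A_51_P446927: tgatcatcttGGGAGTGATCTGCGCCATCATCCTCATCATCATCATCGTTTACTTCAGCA

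An array had 26398 to 28907 probes clear of background in the mutant's channel and 26291 to 27718 in the control's, and no spot was saturated. Dicer1 itself had a log2 ratio of 0.04 ± 0.22 (adjusted p = 0.947). Marker genes of granule neurons (15 genes), Purkinje neurons (16) and interneurons (12) were above background on all arrays, none of them passed the test, and their median log2 ratios were 0.01, 0.01 and -0.01. Of 15 astroglia markers, 2 passed as higher in mutants and 3 as lower, 10 were below 0, and the median was -0.22.

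None of the 72 vesicle and SNARE genes passed at an adjusted p under 0.05 in either direction. Of all genes, 106 passed as higher in mutants (0.588%) and 80 as lower (0.444%), together 1.03%. These counts over all genes changed with the pairs used. They were 44 and 12 without pair 1 and 60 and 31 without pair 3. There were 215 higher without pair 4 and 127 lower without pair 2. With outlier flags applied after the background fit the counts were 50 and 32. At an unadjusted p under 0.05, 3 of the 72 were higher (4.17%, against 4.88% of all genes) and 6 lower (8.33%, against 4.51%). Together these were 12.5% of members, against 9.39% of all genes. That comparison changed with the pairs used: it was 6.94% against 5.86% without pair 1, 9.72% against 10.4% without pair 2, 2.74% against 5.28% without pair 3, and 23.6% against 17.5% without pair 4. With processed signals it was 6.94% against 9.15%, and with median centring 5.56% against 7.06%. A log2 ratio of 0.25 or more in size was found for 5 members (6.94%) and for 6.2% of all genes. No member had a log2 ratio of 0.5 or more in size, which 1.73% of all genes had. The 95% interval lay inside -0.5 to 0.5, a change of less than 1.41-fold, for 64 of the 72 genes (88.9%) and for 92.9% of all genes. The ratios in each pair are shown in the plot by role.

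**Figure D1:**
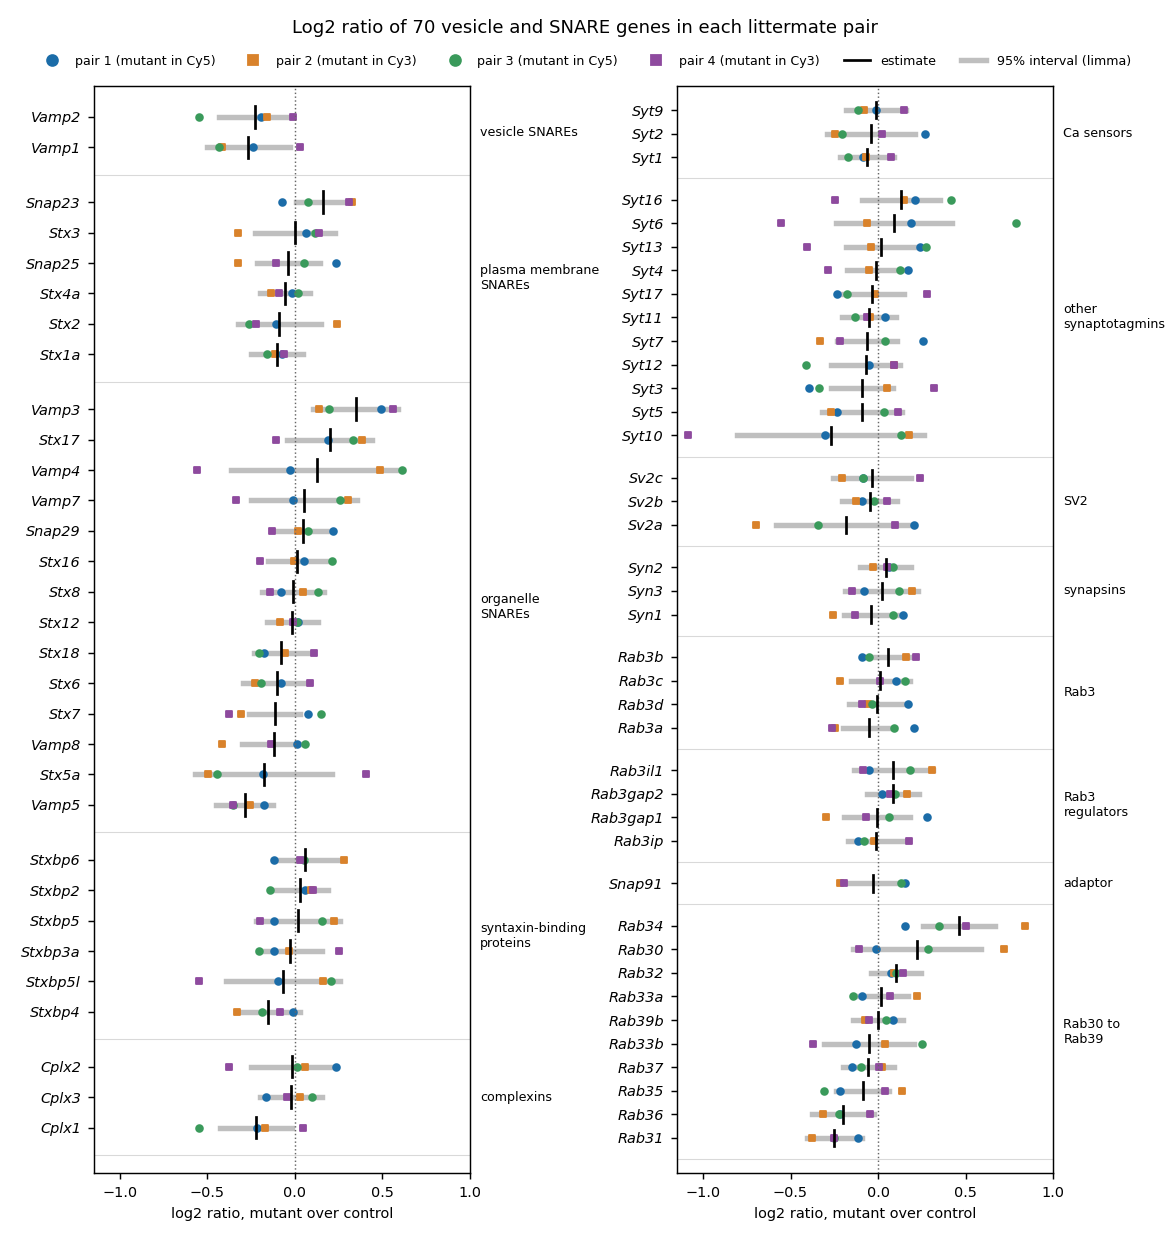
Log2 ratio of mutant over control (x axis) for 70 of the 72 vesicle and SNARE genes (rows, grouped by role), with 1 point per littermate pair, circles where the mutant was in Cy5 and squares where it was in Cy3, the estimate as a black line and limma's 95% interval as a grey bar. Most intervals contain 0; Rab34 lies highest at 0.46 and Vamp5 lowest at -0.29.

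The members leaned slightly to lower values in mutants. The ratio was below 0 for 47 of the 72 genes (65.3%) and for 49.1% of all genes, with a median log2 ratio of -0.02 against 0.00 over all genes. Without pair 4 these medians were -0.04 and 0.01. In pairs 1 to 4 the median over the members was -0.013, -0.045, 0.035 and -0.048, with an SD of 0.038. The SD of a single gene between pairs, dye effect included, had a median of 0.19 for the members and 0.16 for all genes. The lean was not shared by all pairs. In pairs 1 to 4, 40, 42, 31 and 41 of the 72 genes were below 0 (55.6%, 58.3%, 43.1% and 56.9%). Over all genes the shares were 51.3%, 48.3%, 47.9% and 50.1%. With outlier flags applied after the background fit, the median of the members was 0.0058 and that of all genes 0.017, with 45.8% of members and 41.7% of all genes below 0. In this tissue, fewer cells of a type and less RNA per cell cannot be told apart.

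With the brightest probe of each gene, the vesicle SNAREs of synapses had the lowest median of any role, -0.25 over 2 genes. Vamp1, the synaptobrevin of fast-firing neurons, had log2 ratios of -0.24, -0.42, -0.43 and 0.03 in pairs 1 to 4, an estimate of -0.27 ± 0.22 (adjusted p = 0.464). The estimate was -0.38 without pair 4 and -0.15 without pair 2. It was lower in mutants in 3 of 4 pairs, and the mutant levels (13.17 to 13.65 on the normalized log2 scale) overlapped the control levels (13.61 to 13.80).

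Vamp2, the main synaptobrevin of central synapses, had log2 ratios of -0.19, -0.16, -0.55 and -0.01, an estimate of -0.23 ± 0.23 (adjusted p = 0.474). All 4 pairs were below 0, pair 4 barely so, and mutant levels of 13.88 to 14.38 overlapped control levels of 14.32 to 14.57. That value came from the brightest probe, A_52_P301495. The 2 junction probes, whose shared bases are printed in capitals above, gave -0.02 ± 0.14 and -0.03 ± 0.07, so the lower ratio of Vamp2 was seen with 1 of its 3 probes. The estimate was -0.32 without pair 1, -0.14 without pair 3 and -0.09 with the mean over probes.

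Complexin 1 (Cplx1), the form of fast synchronous terminals, followed the same pairs. Its log2 ratios were -0.22, -0.17, -0.55 and 0.05, an estimate of -0.22 ± 0.25 (adjusted p = 0.494), with mutant levels of 14.20 to 14.50 and control levels of 14.45 to 14.74. The Cplx1 estimate was -0.30 without pair 1 and -0.14 without pair 3. Complexin 2 (Cplx2) was at -0.02 ± 0.26 (adjusted p = 0.981), its 4 probes ranging from -0.23 to -0.00084, and Cplx3, the complexin of ribbon synapses, had an interval from -0.20 to 0.16.

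By their brightest probes, Vamp1, Vamp2 and Cplx1 each had their highest ratio in pair 4 and their lowest in pair 3. In pair 3 Vamp1 differed little from its value in pair 2 (-0.43 and -0.42). The 12 oligodendrocyte markers, none of which passed the test and 11 of which were below 0, had median log2 ratios of -0.18, -0.20, -0.58 and 0.01 in pairs 1 to 4. All 12 were above background in both channels of every array. Their summed intensity ran from 205821 to 260834 in mutants and from 248463 to 303731 in controls. In pairs 1 to 4 the log2 ratios of these sums were 0.07, -0.45, -0.54 and -0.09, highest in pair 1. The 15 astroglia markers, also above background in both channels throughout, had median log2 ratios of -0.16, -0.42, -0.26 and -0.11, highest in pair 4 and lowest in pair 2, and summed intensities of 269792 to 318507 in mutants and 343135 to 381100 in controls. For the astroglia sums the log2 ratios in pairs 1 to 4 were -0.16, -0.50, -0.11 and -0.27, highest in pair 3. Granule neuron markers had medians of 0.0007, 0.05, -0.11 and -0.03 in pairs 1 to 4, lowest in pair 3. Those of Purkinje neurons (0.12, 0.01, 0.08 and -0.17) and interneurons (-0.02, -0.01, 0.03 and -0.13) were lowest in pair 4. The log2 ratios of the sums of each neuron list were lowest in pair 4. The part of oligodendrocyte or astroglia RNA in the ratios of Vamp1, Vamp2 and Cplx1 was not tested. The plot of list medians by pair sets these values side by side.

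**Figure D2:**
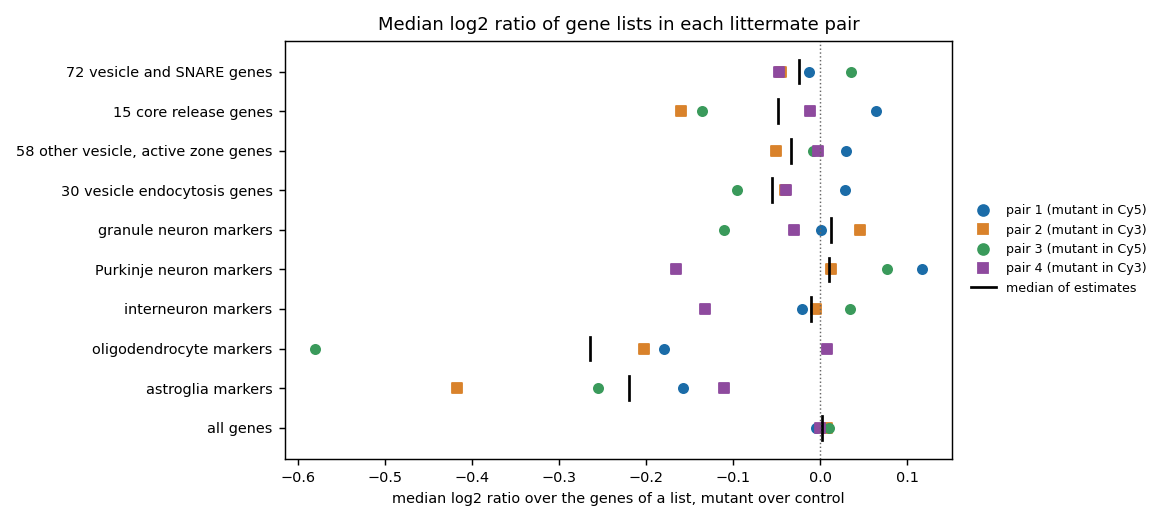
Median log2 ratio of mutant over control (x axis) over the genes of each list (rows) in each littermate pair (circles where the mutant was in Cy5, squares where it was in Cy3), with the median of the estimates as a black line. The 15 core release genes had medians of 0.06, -0.16, -0.14 and -0.01 in pairs 1 to 4, and oligodendrocyte markers reached -0.58 in pair 3, while all genes stayed between -0.01 and 0.01.

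On the plasma membrane side, the estimates of the SNAREs given here ran from -0.10 for Stx1a to 0.16 for Snap23. Syntaxin 1A (Stx1a), a main target SNARE of synapses, had log2 ratios of -0.08, -0.11, -0.16 and -0.06, an estimate of -0.10 ± 0.04 (adjusted p = 0.722). It was below 0 in all 4 pairs with a narrow spread, but levels of the groups overlapped (7.52 to 7.73 in mutants, 7.58 to 7.89 in controls). Over the alternatives the Stx1a estimate ran from -0.15 with processed signals to -0.08 without pair 3.

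Snap25, the neuronal SNAP of the release complex, was at -0.04 ± 0.24 (adjusted p = 0.938), with log2 ratios of 0.24, -0.33, 0.05 and -0.11. With this brightest probe, both pairs with the mutant in Cy5 were above 0 and both with it in Cy3 below. The second probe for Snap25, A_51_P335555, gave -0.04 ± 0.12, with 0.11, -0.18, -0.07 and 0.0017, and its signs did not follow the dye. The third, A_52_P165961, gave 0.36, 0.51, 0.61 and -0.78 in pairs 1 to 4, an estimate of 0.17 ± 0.65, and pair 4 stood apart. Snap23, the broadly expressed relative of Snap25, had the only estimate above 0.1 among the plasma membrane SNAREs, at 0.16 ± 0.19 (adjusted p = 0.510). Its 3 probes all lay above 0 (0.16, 0.11 and 0.08), although pair 1 was at -0.07 with the brightest of them.

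The 3 calcium sensors of evoked release had estimates slightly below 0, with a median of -0.04, and none passed. Synaptotagmin 1 (Syt1), the sensor for synchronous release in forebrain, was at -0.06 ± 0.10 (adjusted p = 0.861), and its 6 probes ranged from -0.15 to 0.0029. Syt2, the fast sensor of hindbrain and cerebellar synapses, had log2 ratios of 0.27, -0.25, -0.20 and 0.03, an estimate of -0.04 ± 0.24 (adjusted p = 0.951). Syt9, a fast sensor of some forebrain neurons, was at -0.01 ± 0.12 (adjusted p = 0.981). Among the 11 other synaptotagmins 8 were below 0, with a median of -0.05, and none passed. The widest spread of all members was that of Syt10, a synaptotagmin that in mouse olfactory neurons controls secretion of a growth factor. Its log2 ratios were -0.30, 0.17, 0.13 and -1.09, with pair 4 far the lowest, and the estimate was -0.27. Syt6 (0.19, -0.07, 0.79 and -0.55) was the next most variable.

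Among the vesicle proteins, SV2A (Sv2a) had the widest interval of the core release genes. Its log2 ratios were 0.21, -0.70, -0.34 and 0.10, with an estimate of -0.18 ± 0.42, a 95% interval from -0.58 to 0.21 and an adjusted p of 0.839; pairs 2 and 3 were low and pairs 1 and 4 were not. Sv2b was at -0.05 ± 0.08 (adjusted p = 0.903). The synapsins gave -0.04 ± 0.19 for Syn1 and 0.04 ± 0.05 for Syn2 (adjusted p = 0.917 and 0.905), and Rab3a, the main Rab3 of vesicles, gave -0.05 ± 0.24 (adjusted p = 0.881). Of the regulators of Rab3, Rab3gap2, the non-catalytic subunit of its GTPase-activating complex, was above 0 in all 4 pairs but only at 0.09 ± 0.06 (adjusted p = 0.784).

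Across the 15 core release genes, 13 were below 0 (86.7%, against 49.1% of all genes) and the median log2 ratio was -0.05. On leaving out 1 pair that median was -0.08 without pair 1, -0.03 without pair 2, -0.03 without pair 3 and -0.09 without pair 4. At an unadjusted p under 0.05, 3 of the 15 (Vamp1, Vamp2 by its brightest probe, and Cplx1) were lower, against 4.51% of all genes. These 3 had their lowest ratios in pair 3. Over all members, in either direction, the share at this threshold was 12.5% with all pairs, 2.74% without pair 3 and 23.6% without pair 4. Over all genes it was 9.39%, 5.28% and 17.5%. None of the 15 passed after adjustment, and for 13 of them the 95% interval lay inside -0.5 to 0.5. The dye term was larger in size than the genotype term for 8 of the 15 genes. The same held for 45 of the 72 members (62.5%), against 53.3% of all genes. For 21 of the 72 members (29.2%) both pairs with the mutant in Cy5 had one sign and both with it in Cy3 the other, against 18.2% of all genes.

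The 5 members with the smallest p-values were Rab34, Vamp5, Rab31, Vamp3 and Rab36, and Vamp1, Vamp2 and Cplx1 came next. The first 5 were grouped here with the organelle SNAREs or with Rab30 to Rab39. Levels of mutants and controls did not overlap for those 5 of the 72 genes, or 6.94%, against 3.99% of all genes. Log2 ratios were above 0 in all 4 pairs for 4 members (Rab34, Vamp3, Rab32 and Rab3gap2), or 5.56%, against 7.75%. They were below 0 in all 4 pairs for 6 (Vamp5, Rab31, Rab36, Vamp2, Stxbp4 and Stx1a), or 8.33%, against 7.32%.

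Rab34, a GTPase of the Golgi and of ciliary membranes, had the largest ratio. Its log2 ratios were 0.16, 0.84, 0.35 and 0.50, an estimate of 0.46 ± 0.29 or 1.38-fold (adjusted p = 0.107). Mutant levels were 12.59, 13.04, 12.91 and 12.81 and control levels 12.43, 12.21, 12.56 and 12.31, so every mutant lay above every control. The junction probe, printed above, gave 0.23 ± 0.13, above 0 in all 4 pairs. Without pair 4 Rab34 was at 0.55 with an adjusted p of 0.0341, the only setting tried in which a member passed. In that setting 1 of 72 members passed as higher, beside 215 of all 18049 genes tested.

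Vamp3 (cellubrevin), the SNARE of recycling endosomes, had log2 ratios of 0.49, 0.14, 0.19 and 0.56, an estimate of 0.35 ± 0.21 or 1.27-fold (adjusted p = 0.309). Pairs 1 and 4 were high and pairs 2 and 3 low, and mutant levels of 8.89, 8.59, 8.73 and 9.08 stood above control levels of 8.40, 8.45, 8.54 and 8.52. The second Vamp3 probe gave 0.24 ± 0.12, above 0 in all 4 pairs.

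Vamp5 (myobrevin), a SNARE first described in muscle, was lowest. Its log2 ratios were -0.17, -0.26, -0.36 and -0.35, an estimate of -0.29 ± 0.09 (adjusted p = 0.186), and mutant levels of 8.77, 8.77, 8.71 and 8.68 lay below control levels of 8.94, 9.03, 9.06 and 9.04. Rab31, a GTPase of traffic between the trans-Golgi network and endosomes, was at -0.25 ± 0.11 (adjusted p = 0.244) and Rab36, a GTPase of late endosomes, at -0.20 ± 0.11 (adjusted p = 0.454). A second Rab31 probe gave -0.12 ± 0.27, below 0 in 2 of 4 pairs. Over the alternatives the Rab36 estimate ran from -0.37 with processed signals to -0.13 without pair 2.

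**Figure D3:**
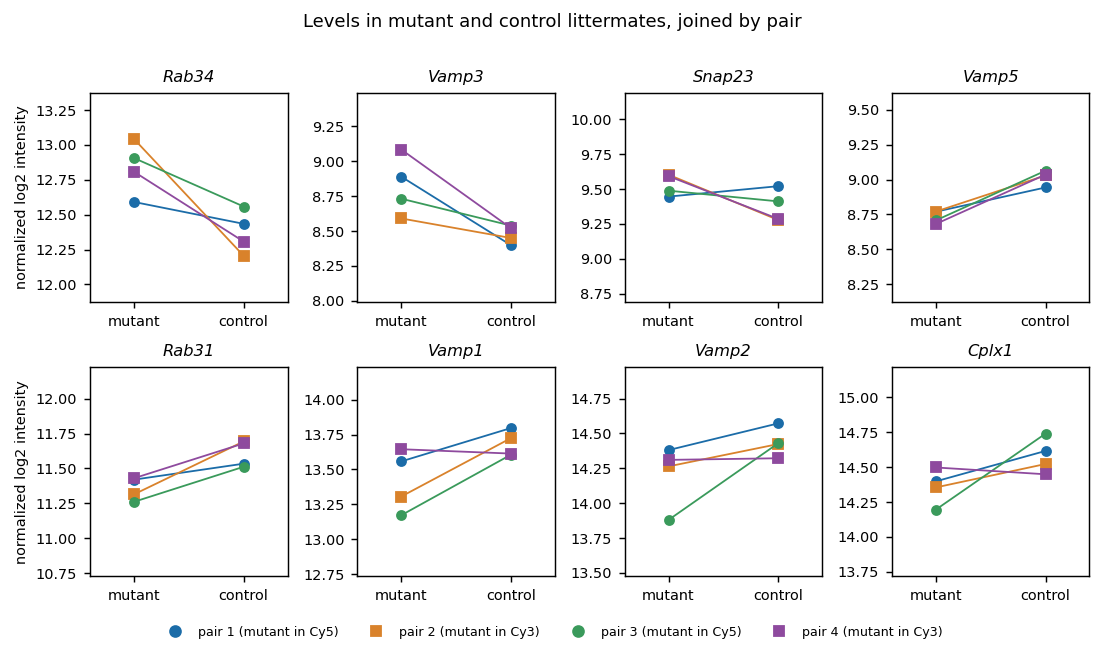
Normalized log2 intensity (y axis, each panel spanning the same range) of 8 genes in mutant and control littermates, joined by a line for each pair. Levels of mutants and controls do not overlap for Rab34, Vamp3, Vamp5 and Rab31, and they overlap for Snap23, Vamp1, Vamp2 and Cplx1.

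The other organelle SNAREs and syntaxin-binding proteins had smaller or less even ratios. Stx17, the syntaxin of autophagosomes, was at 0.20 ± 0.22 (adjusted p = 0.658), but its second probe gave -0.0041. Stx7 of late endosomes was at -0.12 ± 0.27 (adjusted p = 0.678), and Stxbp4, which binds syntaxin 4, was at -0.15 ± 0.14 (adjusted p = 0.647). Vamp4, a SNARE of the trans-Golgi network, ranged from -0.56 in pair 4 to 0.61 in pair 3, and Stx5a, a Golgi syntaxin, from -0.50 in pair 2 to 0.41 in pair 4. The 48 members not named by rank or role had estimates from -0.27 to 0.22, 29 below 0 and 19 above.

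Of the 42 members with several measured probes, 24 had probes of 1 sign (16 below 0 and 8 above) and 18 had probes of both signs. The range between probes of a gene had a median of 0.098 and exceeded 0.2 for 5 genes, Rab34, Cplx2, Vamp2, Snap25 and Stx17. With every probe tested for itself, 126 probes passed as higher and 89 as lower, and no member probe did, the lowest adjusted p being 0.128.

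**Figure D4:**
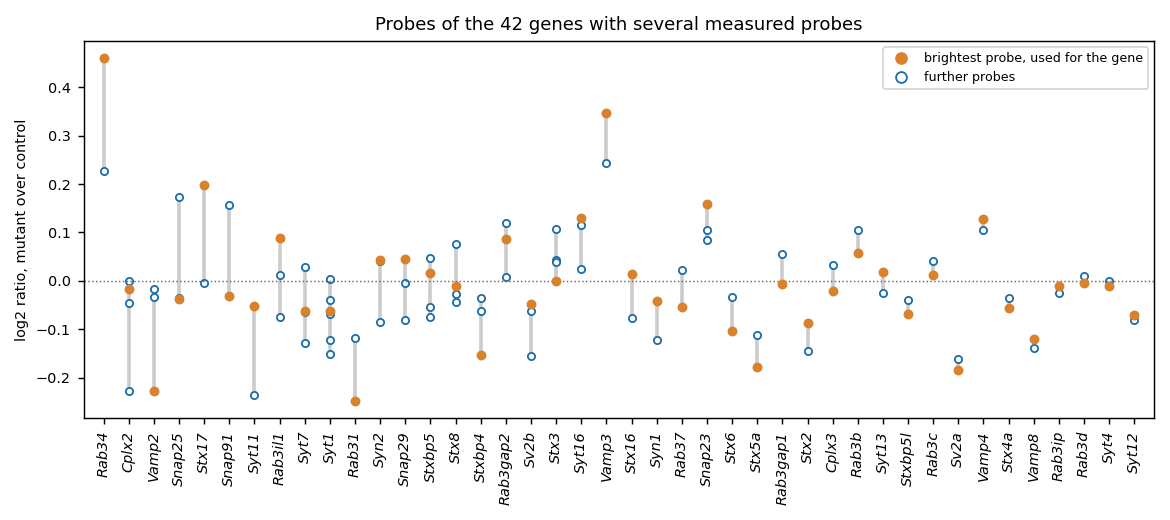
Log2 ratio of mutant over control (y axis) for every measured probe of the 42 genes with several (x axis, ordered by the range between probes), with the brightest probe filled. The probes of Rab34 and Vamp3 all lie above 0, and the brightest Vamp2 probe lies at -0.23 while its junction probes lie near 0.

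The rest of the vesicle pathway was taken from lists of genes outside these families. Of 62 further vesicle and active zone genes 58 were measured, none passed, 37 (63.8%) were below 0 and the median log2 ratio was -0.03. The smallest p-values among them were those of Syngr2 (synaptogyrin 2, a vesicle protein of many tissues) at 0.51 ± 0.37, Unc13c (a priming factor of cerebellar terminals) at 0.20 ± 0.14 and Ppfia3 (an active zone scaffold, liprin-alpha-3) at -0.19 ± 0.18, with adjusted p-values of 0.197, 0.506 and 0.535. Of 30 measured vesicle endocytosis genes none passed and 23 (76.7%) were below 0. Their median log2 ratio was -0.055, with medians of 0.03, -0.04, -0.09 and -0.04 in pairs 1 to 4. Of 12 measured SNAREs of other families none passed and 6 (50%) were below 0. Over all genes the share below 0 was 49.1%.

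Among 20 measured vesicle transporters and proton pump subunits, 1 passed, Slc10a4, an orphan transporter of vesicles in cholinergic and monoaminergic neurons. It was at 3.84 ± 0.24 (adjusted p = 0.000403), with the control channel above background on 3 of 4 arrays. It did not pass with the flags applied after the background fit (3.13, adjusted p = 0.0522). The estimate ran from 2.79 to 5.47 over the 18 alternatives that kept this gene. A stricter filter, which asked for both channels on all 4 arrays, dropped it.

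Of the 8 genes with no probe past the filter, Cplx4, Rab38, Stx11, Stx19, Syt15 and Syt8 were well above background on no array in either channel. Syt14 was above background in the mutant channel of 1 array, and Rab39, just outside the filter, in the mutant channel of 2 arrays and the control channel of 3. Just inside it was Syt17, with 3 mutant and 4 control channels above background.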

How the data were processed

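Cerebellum RNA of 4 littermate pairs was measured on 4 two-colour arrays of 1 slide and scan, so no slide or scan block could be made. The deposited files hold spot intensity, local background intensity and, as log10 values, the Cy5/Cy3 ratios that the authors obtained with Agilent Feature Extraction 10.5.1.1, per the submitters' processing notes and the file headers. The authors' deposited value table holds the same log10 ratios as mutant over control (largest difference 4.84e-06).

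From the deposited intensity values, log2 ratios were computed with limma 3.58.1 in R 4.3.3: normexp with offset 50 without outlier-flagged spots (143 to 248 per array), then loess within arrays. The brightest probe that passed the filter stood for a gene. The fit had a dye and a genotype term, and p-values were adjusted by Benjamini-Hochberg over 18025 genes. In fits that left out a pair, the estimate was the average of the mean ratios in each dye order. The pair alone in its dye order thus weighed more than each of the others. Levels of single channels were normalized between arrays by Aquantile. After mean, dye and genotype were fitted out, the correlation was 0.393 to 0.704 between channels sharing an array and at most 0.316 otherwise; channels sharing an array also share their spots. The script was tested on simulated data.

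The members, lists and tests were chosen with earlier results of these data known, as was the step that removes flagged spots before the background fit. The definition of an outlier flag (feature flags and background non-uniformity) was settled after the counts under 3 definitions had been seen, as the one that gave the flag and gene counts of an earlier analysis of these data; the other 2 are among the alternatives. Full statistics were given for the 12 members with the smallest p and for the core release genes, of which 2 are not reported here. Symbols came from the array files, with RefSeq names for non-members.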

Additional observations from a re-analysis of the deposited data

Results flagged for a closer look

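For Stx3, a plasma membrane syntaxin of epithelia and of ribbon synapses, the log2 ratio in pair 2 was -0.32, far from those of the other 3 pairs, of which the nearest was 0.07. It was 1 of 72 members examined in this way, and chance would mark about 1 in 20. Over the 4 pairs its log2 ratio was -0.00033 ± 0.22.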

How the results depend on the processing

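No member passed as lower under any of the 19 alternatives and 1 (Rab34, without pair 4) passed as higher, so members called higher ranged from 0 to 1 on leaving out a pair. Over all genes, leaving out 1 pair gave 44 to 215 genes higher (44 without pair 1, 60 without pair 3, 215 without pair 4) and 12 to 127 lower (12 without pair 1, 127 without pair 2, 31 without pair 3), the cause of which was not tested. With flags applied after the background fit there were 50 higher and 32 lower, and the processed signals and the value table gave 49 lower each. The share of members below 0 ranged from 56.9% (without pair 4) to 64.4% on leaving out a pair, against 48.2% to 51.2% of all genes. It was 45.8% with flags after the background fit, against 41.7% of all genes. With median centring it was highest, at 68.1% against 53.3% of all genes. The median of the members was below 0 in 19 of 20 settings, the main one included, and ran from -0.041 (without pair 4) to 0.0058 (flags after the background fit); that of the core release genes ran from -0.092 to -0.026. Keeping the channels of an array unpaired (no replicate block) called no member and left the median at -0.02. The 2 other definitions of an outlier flag, added after the data were seen, called no member. A slide or scan block could not be run, since all arrays shared both. Of 1329 values of 70 members under the alternatives, 95 differed in sign from the main value, none of them past the threshold, and 29 of the 70 genes kept 1 sign throughout. The number of arrays is one limit on precision. The values of the other sign, Dicer1 included, follow on the log2 scale. With flags applied after the background fit these were Rab37 0.0036, Syn1 0.013, Rab33b 0.0082, Syt17 0.019, Stxbp3a 0.041, Sv2c 0.015, Cplx3 0.018, Stx12 0.0047, Syt9 0.041, Rab3ip 0.056, Syt4 0.0068, Stx8 0.018, Rab3gap1 0.031, Stx3 0.019. With the mean over probes these were Syn2 -0.00053, Snap29 -0.013, Snap91 0.063, Snap25 0.034, Cplx3 0.0065, Syt13 -0.0035, Stx16 -0.031, Stxbp5 -0.017, Rab3gap1 0.024, Rab3d 0.0031, Stx3 0.047, Dicer1 -0.013. Without background subtraction these were Syn3 -0.00063, Rab39b -0.0027, Stx3 0.0032. With processed signals these were Rab3c -0.0047, Rab39b -0.000097, Stx3 0.0037. With the value table they were Rab3c -0.0047, Rab39b -0.000097, Stx3 0.0037. With median centring these were Rab3c -0.0046, Rab39b -0.014. With scaling between arrays these were Rab3gap1 0.0040, Rab3d 0.0015, Stx3 0.0037. With feature flags only, Rab39b was at -0.0054, and with median spot intensity, Stx3 was at 0.012. Leaving out 1 pair at a time, the ranges were Cplx2 -0.13 to 0.091, Cplx3 -0.086 to 0.044, Dicer1 -0.054 to 0.13, Rab33a -0.023 to 0.054, Rab33b -0.16 to 0.051, Rab39b -0.0093 to 0.011, Rab3c -0.045 to 0.071, Rab3d -0.055 to 0.047, Rab3gap1 -0.064 to 0.052, Rab3il1 -0.0097 to 0.19, Rab3ip -0.061 to 0.039, Snap25 -0.092 to 0.017, Stx12 -0.035 to 0.0042, Stx16 -0.033 to 0.063, Stx2 -0.20 to 0.028, Stx3 -0.12 to 0.11, Stx5a -0.40 to 0.047, Stx8 -0.064 to 0.043, Stxbp2 -0.021 to 0.079, Stxbp3a -0.10 to 0.043, Stxbp5 -0.090 to 0.12, Stxbp5l -0.25 to 0.11, Stxbp6 -0.0025 to 0.12, Sv2a -0.38 to 0.014, Sv2c -0.15 to 0.077, Syn3 -0.066 to 0.11, Syt10 -0.59 to 0.045, Syt12 -0.16 to 0.019, Syt13 -0.072 to 0.11, Syt17 -0.11 to 0.038, Syt2 -0.16 to 0.079, Syt4 -0.069 to 0.047, Syt5 -0.19 to 0.0056, Syt6 -0.061 to 0.24, Syt9 -0.070 to 0.044, Vamp4 -0.13 to 0.39, Vamp7 -0.11 to 0.21.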
